A study of Mus musculus with 12 samples.

Results

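The genes described here carry leukocytes from the blood into tissue, and they were chosen by name: Sele, Selp, Selplg, Icam1, Vcam1, Itgam, Itgb2, Itgal and Itga4. Each was read from the array feature whose platform annotation gave its symbol and no other symbol. Of the 9 genes, 8 had such a feature among the 28853 features of the array, and each had 1. Selp, which encodes P-selectin, was not analysed here.

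A circulating leukocyte leaves the blood in steps. Selectins on activated endothelium bind carbohydrate groups on leukocyte glycoproteins and let the cell roll. Chemokines and other signals then switch leukocyte integrins to their binding state, and the integrins hold the cell to ligands of the immunoglobulin family on the endothelium. In joint inflammation this route brings neutrophils and monocytes to the synovium, and transfer of K/BxN serum, which holds antibodies that start arthritis without the recipient's own T cells or B cells, is a model of that inflammation.

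Total RNA of whole ankle joints from 12 C57BL/6 mice, all labelled male, was measured on an Affymetrix whole-transcript array with 1 array per mouse and 3 mice in each of 4 groups. The labels number no replicates, and the replicate numbers used below only name the arrays of a group. Mmp8+/+ mice carried the gene for matrix metalloproteinase 8, a collagenase of neutrophils, and Mmp8-/- mice lacked it in every cell, after 12 generations of backcrossing to C57BL/6. Arthritic mice of either genotype received 150 µl of pooled K/BxN serum into the peritoneum on day 0 and on day 2, at an age of 6 to 8 weeks, and were killed on day 7. Control mice had no arthritis, and neither an injection nor their age is given for them in the sources used here. A whole joint holds marrow, bone, cartilage, synovium and skin, so that in these bulk samples fewer cells of a type and less RNA per cell cannot be told apart. Values are log2 signals, where a difference of 1 is a doubling, and they are compared within a gene only, because probes of different genes differ in brightness.

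The median log2 signal of an array lay between 6.74 and 6.82, and arrays correlated with each other at 0.9321 to 0.9905. Mmp8 itself read 10.21 to 11.16 on the 6 Mmp8+/+ arrays and 4.64 to 5.54 on 5 of the 6 Mmp8-/- arrays. The array labelled Mmp8-/- control replicate 2 read 10.65 for Mmp8 and so went against its label. Xist, an RNA of female cells, read 10.42 and 10.92 on the arrays labelled Mmp8+/+ control replicate 1 and Mmp8-/- control replicate 1, and 4.66 to 5.41 on the other 10. Eif2s3y, a Y-linked gene, read 4.02 and 4.16 on those same 2 arrays and 7.94 to 9.27 on the others. The array of Mmp8-/- arthritic replicate 1 gave the lowest of the 12 values for 20.26% of the features tested and the highest for 19.23%, against an even share of 8.33%. Where a gene named below lost its call without some of these 4 arrays, the loss is stated beside it. No adjusted p is given for the fit that keeps 1 Mmp8-/- control array. Each direction drawn from Mmp8-/- control mice includes the array labelled Mmp8-/- control replicate 2 unless its removal is stated.

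In arthritic ankles the adhesion genes moved in both directions. Itga4, the alpha4 chain of the integrin VLA-4, was the gene with the largest difference among the 8, at close to a 2-fold lower signal in both genotypes. Vcam1, the endothelial and stromal ligand of VLA-4, was lower as well when the genotypes were averaged. Sele, Selplg, Icam1 and Itgam were higher on that average, by 0.37 to 0.55 on the log2 scale. Itgb2 and Itgal did not pass the test in any comparison.

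**Figure D1:**
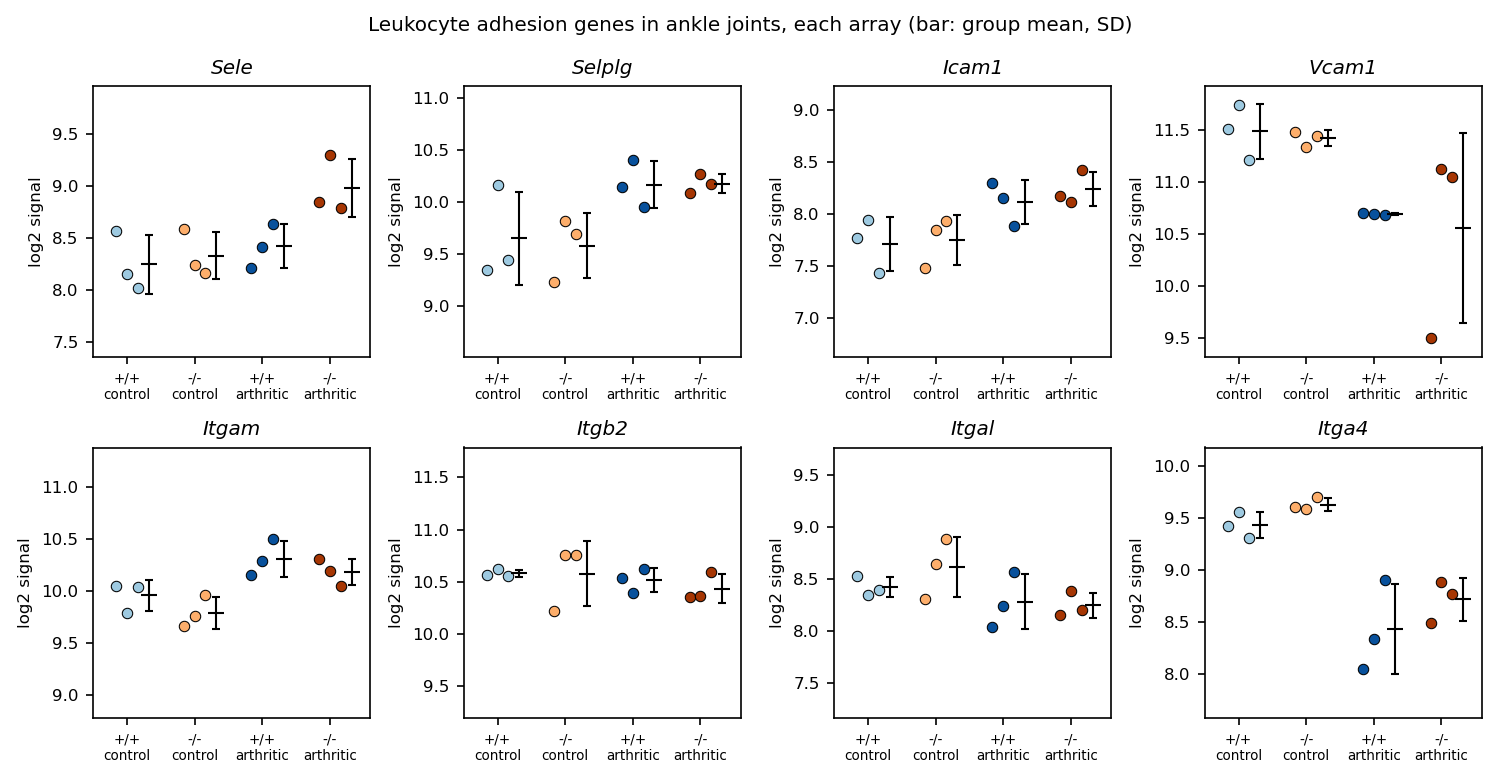
Log2 signal (vertical axis) of the 8 measured genes on each of the 12 arrays, by group (horizontal axis); points are arrays, and bars to their right are the group mean with its SD (n = 3). Every panel spans the same range of log2 units. For Itga4 all 6 arthritic arrays lie below all 6 control arrays, and for Vcam1 the array of Mmp8-/- arthritic replicate 1 lies at 9.50, far below the other 2 of its group.

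Sele (feature 10351182) encodes E-selectin, which activated endothelium makes and which slows leukocytes rolling along the vessel wall. Its log2 signals were 8.57, 8.15 and 8.02 in Mmp8+/+ control mice and 8.59, 8.25 and 8.16 in Mmp8-/- control mice. They were 8.22, 8.41 and 8.64 in arthritic Mmp8+/+ mice and 8.85, 9.30 and 8.79 in arthritic Mmp8-/- mice. The arthritic Mmp8-/- arrays were the 3 highest of the 12, and the other 3 groups overlapped. The arthritis effect, arthritic minus control, was 0.65 ± 0.20 (SE) in Mmp8-/- mice, a 1.57-fold rise with an adjusted p of 0.0322 by limma. In Mmp8+/+ mice it was 0.17 ± 0.20, with an adjusted p of 0.556. Averaged over genotypes it was 0.41 ± 0.14 (adjusted p = 0.0292), a call that was lost without the array labelled Mmp8-/- control replicate 2 (adjusted p = 0.0608) and without any of 5 others. The call in Mmp8-/- mice was lost when any of 4 arrays was left out. The adjusted p was 0.0908 without the array labelled Mmp8-/- control replicate 2, 0.0930 without Mmp8-/- control replicate 3, 0.0502 without Mmp8-/- arthritic replicate 1 and 0.0985 without Mmp8-/- arthritic replicate 2, with effects of 0.49 to 0.71.

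The 300 bases around the start of Sele in RefSeq, 250 before it and 50 after it, are shown because Sele is the gene whose signal stood apart in arthritic Mmp8-/- mice. The window is chr1:164047984-164048283 of GRCm38.p6, plus strand, and the capitals mark the letters GAGGAA, the core bound by PU.1 and other ETS factors, here read on the opposite strand at -107 to -102 from the start.
Sele: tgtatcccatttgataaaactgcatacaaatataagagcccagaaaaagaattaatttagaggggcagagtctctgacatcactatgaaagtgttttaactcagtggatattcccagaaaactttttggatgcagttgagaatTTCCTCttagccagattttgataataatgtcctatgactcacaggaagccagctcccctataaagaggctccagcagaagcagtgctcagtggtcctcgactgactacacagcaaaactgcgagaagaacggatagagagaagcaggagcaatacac

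Selplg (feature 10532744) encodes PSGL-1, the glycoprotein on leukocytes that all selectins bind. Control mice gave log2 signals of 9.35, 10.17 and 9.45 on the arrays labelled Mmp8+/+ and 9.23, 9.82 and 9.69 on those labelled Mmp8-/-. Arthritic arrays read 10.15, 10.40 and 9.96 in Mmp8+/+ mice and 10.08, 10.27 and 10.17 in Mmp8-/- mice. In Mmp8-/- mice the arthritic arrays lay above the controls without overlap, while in Mmp8+/+ mice control replicate 2 reached the arthritic range. The effect averaged over genotypes was 0.55 ± 0.16, a 1.47-fold rise (adjusted p = 0.0118 by limma). Neither genotype passed alone, with 0.51 ± 0.22 in Mmp8+/+ mice (adjusted p = 0.115) and 0.59 ± 0.22 in Mmp8-/- mice (adjusted p = 0.0653). Leaving out Mmp8+/+ control replicate 2 brought both genotypes past the threshold, at 0.77 with an adjusted p of 0.0221 and at 0.59 with an adjusted p of 0.0324. Leaving out the 2 arrays with Xist signal ended the averaged call, at 0.39 with an adjusted p of 0.0834.

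Icam1 (feature 10583519) encodes the endothelial ligand of the beta2 integrins LFA-1 and Mac-1. Its log2 signals were 7.77, 7.95 and 7.44 in Mmp8+/+ control mice and 7.48, 7.84 and 7.93 in Mmp8-/- control mice. They were 8.30, 8.16 and 7.89 in arthritic Mmp8+/+ mice and 8.18, 8.12 and 8.42 in arthritic Mmp8-/- mice. The Mmp8-/- groups did not overlap, and the Mmp8+/+ groups did. The averaged effect was 0.44 ± 0.13, a 1.36-fold rise with an adjusted p of 0.0144 by limma. It was 0.40 ± 0.18 in Mmp8+/+ mice (adjusted p = 0.138) and 0.49 ± 0.18 in Mmp8-/- mice (adjusted p = 0.0681). Without the 2 arrays with Xist signal the averaged effect was 0.39, with an adjusted p of 0.0655.

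The Icam1 window is shown because Icam1, like Sele, is a textbook target of inflammatory cytokines in endothelium and was higher together with it on average. It is chr9:21015690-21015989 of GRCm38.p6, plus strand, and holds none of the 3 motifs searched, so no base is in capitals. Icam4, the gene next to Icam1 on the chromosome, rose by 0.40 ± 0.14 on average (adjusted p = 0.0359), a call lost without the 2 arrays with Xist signal (adjusted p = 0.165) and without Mmp8-/- arthritic replicate 1 (adjusted p = 0.0821).
Icam1: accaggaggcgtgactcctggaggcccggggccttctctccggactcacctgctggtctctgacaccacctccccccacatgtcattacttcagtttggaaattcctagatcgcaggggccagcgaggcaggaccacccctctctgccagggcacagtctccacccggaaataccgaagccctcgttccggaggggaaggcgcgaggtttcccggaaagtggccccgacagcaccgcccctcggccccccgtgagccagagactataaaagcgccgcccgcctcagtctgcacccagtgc

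Vcam1 (feature 10501608) encodes the ligand that VLA-4 binds, made by activated endothelium and also by stromal cells and macrophages of the marrow. On control arrays it read 11.50, 11.74 and 11.21 in Mmp8+/+ mice and 11.48, 11.33 and 11.44 in Mmp8-/- mice. Arthritic Mmp8+/+ mice read 10.70, 10.69 and 10.68, and arthritic Mmp8-/- mice read 9.50, 11.13 and 11.04. Every arthritic array lay below every control array, a separation that 19.6% of all features showed in either direction. The averaged effect was -0.83 ± 0.22, to 0.564 of the control signal (adjusted p = 0.00971 by limma). Within genotypes it was -0.79 ± 0.32 in Mmp8+/+ mice (adjusted p = 0.0944) and -0.86 ± 0.32 in Mmp8-/- mice (adjusted p = 0.0638). The array of Mmp8-/- arthritic replicate 1 set much of this spread. Without it the effect in Mmp8+/+ mice was again -0.79, now ± 0.15 with an adjusted p of 0.00228. In Mmp8-/- mice it was -0.33 ± 0.16 with an adjusted p of 0.203, and the average was -0.56 ± 0.11 with an adjusted p of 0.00187. Leaving out Mmp8-/- arthritic replicate 2 or replicate 3 in its place brought the Mmp8-/- effect past the threshold, at -1.15 (adjusted p = 0.0261) and -1.10 (adjusted p = 0.0334). With the 3 control arrays that went against their labels left out, the averaged effect was -0.83 and not past the threshold. That setting keeps 1 Mmp8-/- control array.

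Itga4 (feature 10473125) pairs with the beta1 chain as VLA-4 or with the beta7 chain, and is carried by lymphocytes, monocytes, eosinophils and marrow progenitors. Its log2 signals were 9.42, 9.56 and 9.31 in Mmp8+/+ control mice and 9.60, 9.58 and 9.70 in Mmp8-/- control mice. In arthritic mice they were 8.05, 8.34 and 8.91 in the Mmp8+/+ group and 8.49, 8.89 and 8.77 in the Mmp8-/- group. All 6 arthritic arrays lay below all 6 control arrays, as they did for Vcam1. The effect was -0.997 ± 0.196 in Mmp8+/+ mice, to 0.501 of the control signal (adjusted p = 0.00298 by limma). In Mmp8-/- mice it was -0.91 ± 0.20, to 0.532 of the control signal (adjusted p = 0.00582), and the average was -0.95 ± 0.14 (adjusted p = 1.27e-04). Itga4 was the 1 member called in both genotypes with the same sign, as 12.4% of features were. Both calls held when any single array was left out, with adjusted p-values up to 0.0182 in Mmp8+/+ and 0.0269 in Mmp8-/- mice. With the arrays that carry Xist signal and that labelled Mmp8-/- control replicate 2, 3 in all, left out, the effect in Mmp8-/- mice was -0.98 and not past the threshold. That setting keeps 1 Mmp8-/- control array.

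The Itga4 window is shown as that of the gene with the largest difference. It is chr2:79255176-79255475 of GRCm38.p6, plus strand, and holds none of the 3 motifs. Of the chains that pair with alpha4, Itgb1 (beta1) read 0.07 ± 0.19 higher in arthritic Mmp8+/+ mice and -0.11 ± 0.19 in Mmp8-/- mice, with adjusted p-values of 0.827 and 0.681. Itgb7 (beta7) gave -0.27 ± 0.17 and -0.16 ± 0.17, with adjusted p-values of 0.272 and 0.495 by limma.
Itga4: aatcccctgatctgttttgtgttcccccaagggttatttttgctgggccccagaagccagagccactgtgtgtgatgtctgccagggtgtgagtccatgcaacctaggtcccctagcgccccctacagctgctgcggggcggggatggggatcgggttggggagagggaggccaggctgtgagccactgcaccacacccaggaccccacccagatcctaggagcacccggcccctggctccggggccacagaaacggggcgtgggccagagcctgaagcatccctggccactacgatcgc

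Itgam (feature 10557862) encodes the alphaM chain of Mac-1, the integrin of neutrophils, monocytes and macrophages. Its log2 signals were 10.05, 9.79 and 10.04 in Mmp8+/+ control mice and 9.66, 9.76 and 9.96 in Mmp8-/- control mice. Arthritic arrays read 10.15, 10.29 and 10.50 in Mmp8+/+ mice and 10.31, 10.19 and 10.05 in Mmp8-/- mice. Within either genotype the arthritic arrays lay above the controls, while across genotypes the lowest arthritic array met the highest control. The averaged effect was 0.37 ± 0.11, a 1.29-fold rise (adjusted p = 0.0152 by limma). Neither genotype passed alone, with 0.35 ± 0.15 (adjusted p = 0.123) and 0.39 ± 0.15 (adjusted p = 0.0826). Without the 2 arrays with Xist signal the average was 0.36, with an adjusted p of 0.0574.

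The Itgam window, chr7:128062390-128062689 of GRCm38.p6 on the plus strand, is shown because it holds GAGGAA 3 times, marked in capitals, at -84 to -79 on the gene's own strand and at -15 to -10 and 33 to 38 on the other. On the chromosome Itgam is followed by Itgax and Itgad, the alpha chains of other beta2 integrins. These neighbours gave averaged effects of -0.30 ± 0.16 (adjusted p = 0.150) and 0.12 ± 0.12 (adjusted p = 0.427).
Itgam: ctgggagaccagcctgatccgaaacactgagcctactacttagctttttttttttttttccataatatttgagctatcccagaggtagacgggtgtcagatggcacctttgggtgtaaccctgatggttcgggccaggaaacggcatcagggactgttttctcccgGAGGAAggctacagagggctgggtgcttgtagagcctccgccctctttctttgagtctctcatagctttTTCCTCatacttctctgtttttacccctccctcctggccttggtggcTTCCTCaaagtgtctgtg

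RefSeq windows were matched for 5 of the 9 genes, Selp being the other 1, and not for Selplg, Vcam1, Itgb2 or Itgal. Of all 32851 promoter windows of that length, 28.3% held GAGGAA on either strand. The kappaB consensus, bound by NF-kappaB and searched only as GGGRNNYYCC (R is A or G, Y is C or T, N any base), was in 8.5% of them and in 0 of the 5. Sites that depart from these letters were not searched, so the 0 does not show that a window lacks a site of NF-kappaB. AGATAA, a form of the motif of GATA factors, was in 11.2% and in 0 of the 5. These are matches of letters only.

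Itgb2 (feature 10364262) encodes the beta2 chain shared by Mac-1 and LFA-1. The 3 Mmp8+/+ control mice read 10.56, 10.62 and 10.55, and the Mmp8-/- control mice 10.22, 10.75 and 10.76. Arthritic mice read 10.53, 10.39 and 10.62 and 10.35, 10.36 and 10.59 in the same order of genotypes. The groups overlapped in both genotypes. The averaged effect was -0.10 ± 0.12, with a 95% interval of -0.35 to 0.15 and an adjusted p of 0.496.

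Itgal (feature 10557591) encodes the alphaL chain, which with beta2 forms LFA-1 on lymphocytes and other leukocytes. Log2 signals of 8.53, 8.35 and 8.40 were measured in Mmp8+/+ control mice and of 8.31, 8.65 and 8.89 in Mmp8-/- control mice. Arthritic Mmp8+/+ mice read 8.04, 8.24 and 8.57, and arthritic Mmp8-/- mice read 8.16, 8.38 and 8.21. These groups overlapped too. The averaged effect was -0.25 ± 0.13, with an interval of -0.52 to 0.01 and an adjusted p of 0.115. Of the 3 chains of Mac-1 and LFA-1, the alphaM chain alone was called, on the average. Whether the chains differed from each other was not tested.

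**Figure D2:**
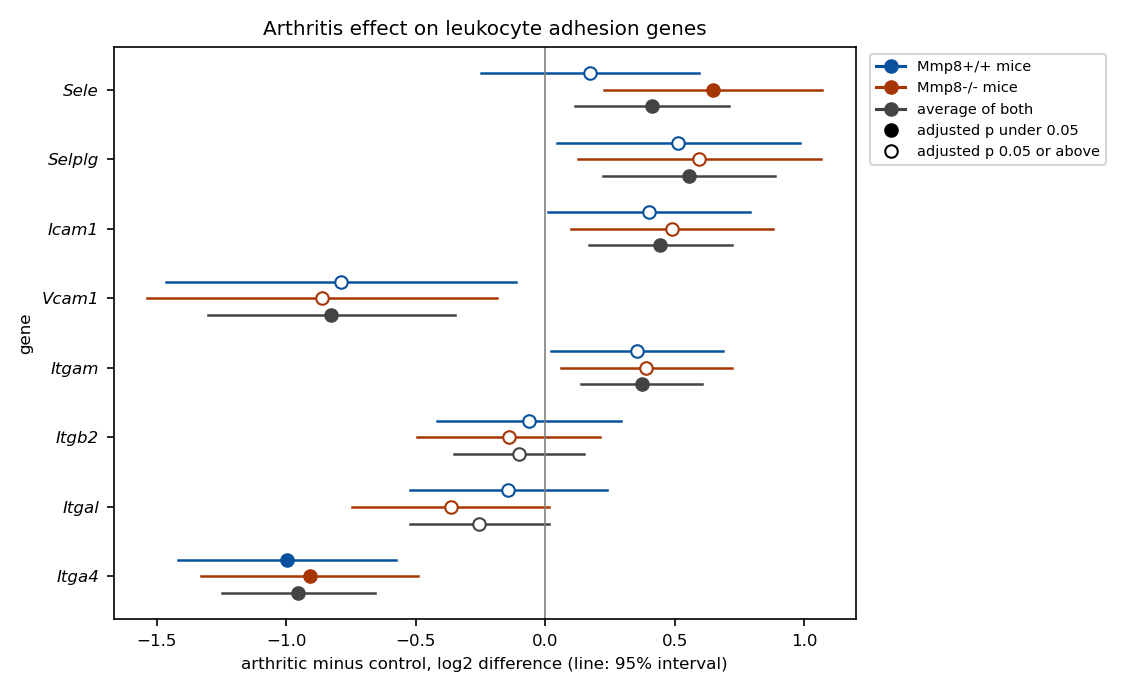
Arthritis effect on each gene as the log2 difference of arthritic minus control mice (horizontal axis) in Mmp8+/+ mice, Mmp8-/- mice and the average of both; lines are 95% intervals and filled points have an adjusted p under 0.05. Itga4 is filled in all 3 comparisons, Sele in Mmp8-/- mice and the average, and Selplg, Icam1, Vcam1 and Itgam in the average alone.

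Counted together, 1 of the 8 genes passed in Mmp8+/+ mice, against 18.9% of all features tested. In Mmp8-/- mice 2 of 8 passed, against 21.6%. On the average 6 of 8 passed, against 42.1% of all features. Of the 6, 4 were higher and 2 lower, where 19.5% of features were higher and 22.6% lower. Without overlap between arthritic and control arrays were 3 of 8 genes in Mmp8+/+ mice, where 40.9% of features had none, and 6 of 8 in Mmp8-/- mice, where 39.3% had none. The median size of the effect, whatever its sign, was 0.38 over the 8 genes in Mmp8+/+ mice and 0.54 in Mmp8-/- mice, and 0.29 and 0.32 over all features. The sign of the effect was the same in both genotypes for all 8 genes, as for 82.2% of features. Without the 2 arrays with Xist signal 3 genes passed on the average, where 10.3% of features were higher and 15.9% lower.

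The comparison of genotypes asked whether loss of Mmp8 changed these genes. No member passed in arthritic mice, where 0.00541% of features did. Mmp8 itself was not called, in arthritic or in control mice. It read 10.21 to 11.16 on Mmp8+/+ arrays and 4.64 to 5.54 on 5 of the 6 Mmp8-/- arrays. The array labelled Mmp8-/- control replicate 2, at 10.65, is part of the fit that sets the spread for both comparisons. A missing call here therefore does not show that a gene was unchanged. Only Sele had an unadjusted p under 0.05 there, as 2.83% of features had. In arthritic mice Sele was higher where Mmp8 was missing, by 0.56 ± 0.20, a ratio of 1.47 with a 95% interval of the log2 difference from 0.14 to 0.98. All 3 Mmp8-/- arrays exceeded all 3 Mmp8+/+ arrays, as was so in either direction for 6.18% of features, but the adjusted p was 0.9997 by limma. The list of 5 epidermal markers also separated these groups, with a mean log2 signal of 9.15 to 9.73 in Mmp8+/+ and 7.73 to 8.01 in Mmp8-/- arthritic mice. The 1 feature called in this comparison was that of its member Krtdap, a keratinocyte protein named after its values were seen, at -1.83 ± 0.23 (adjusted p = 0.0234). The part of skin content in the difference of Sele was not tested. For the other 7 genes the difference ranged from -0.14 for Vcam1 to 0.29 for Itga4. The widest of their intervals was that of Vcam1, from -0.81 to 0.54.

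In control mice no member passed and 0 had an unadjusted p under 0.05, against 0% and 3.22% of features. Itga4 was the gene whose control groups did not overlap, higher in Mmp8-/- mice by 0.20 ± 0.20 (adjusted p = 0.9999 by limma), where 7.82% of features had no overlap. The interaction, the arthritis effect in Mmp8-/- mice minus that in Mmp8+/+ mice, passed for no member, nor for any feature (0%), and 0 members had an unadjusted p under 0.05, against 3.11% of features. It was largest for Sele, at 0.47 ± 0.28 with an interval of -0.12 to 1.07. The call of Sele in Mmp8-/- and not in Mmp8+/+ mice therefore does not show that its arthritis effect differed between them. For Vcam1 the interaction was -0.07 ± 0.45 and turned to 0.46 without Mmp8-/- arthritic replicate 1.

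The wider pathway was read from lists of 66 other adhesion genes, of which 62 passed the filter on low signal. In either genotype 5 of the 62 were higher and 10 lower, where the shares of all features were 7.2% and 11.7% for Mmp8+/+ and 7.92% and 13.7% for Mmp8-/- mice. On the average 14 were higher and 16 lower, against 19.5% and 22.6% of features. These shares are the background for the counts of each list below. Of the 15 calls in Mmp8-/- mice, 10 stayed without the 2 arrays with Xist signal, where 2.48% of features were higher and 6.85% lower. Without the array labelled Mmp8-/- control replicate 2, 12 stayed, where the shares were 4.06% and 8.86%. With all 3 of these control arrays left out, 1 Mmp8-/- control array remained and fewer calls stayed. The median effect was -0.01 in Mmp8+/+ mice and -0.12 in Mmp8-/- mice, and 0.01 and -0.01 over all features.

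Among carriers of selectin ligands, 1 of 6 genes was lower in Mmp8+/+ mice and 2 in Mmp8-/- mice. Cd24a, a heavily glycosylated protein of immature blood cells and a P-selectin ligand, changed by -1.14 ± 0.22 and -0.93 ± 0.22 (adjusted p = 0.00298 and 0.0107). The second call was lost without the 3 control arrays, where 1 Mmp8-/- control array remained. Of 10 enzymes that build or sulfate selectin ligands, 2 were higher and 1 lower in either genotype. B4galt1, a galactosyltransferase, rose by 0.89 ± 0.15 and 0.67 ± 0.15 (adjusted p = 0.00118 and 0.00780). Its call in Mmp8-/- mice was also lost without the 3 control arrays. St3gal6, a sialyltransferase of selectin ligands, changed by -1.23 ± 0.22 and -1.35 ± 0.22 (adjusted p = 0.00157 and 8.23e-04). Beside the naming rule, Fut7, the fucosyltransferase of leukocyte selectin ligands, was picked after its values were seen: it rose by 0.60 ± 0.17 in Mmp8-/- mice (adjusted p = 0.0263) and read 0.13 ± 0.17 in Mmp8+/+ mice (adjusted p = 0.628). The call of Fut7 was lost without the 2 arrays with Xist signal (adjusted p = 0.121).

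Of 13 other integrin chains, 1 was higher in either genotype, while 5 were lower in Mmp8+/+ and 3 in Mmp8-/- mice. Itga5, the alpha5 chain of the fibronectin receptor, rose by 1.62 ± 0.16 and 1.13 ± 0.16 (adjusted p = 1.74e-05 and 3.28e-04). Itga6, a laminin receptor chain, changed by -0.89 ± 0.17 and -1.14 ± 0.17 (adjusted p = 0.00238 and 3.77e-04). Itga2b, the platelet and megakaryocyte alphaIIb chain, changed by -1.41 ± 0.21 and -0.71 ± 0.21 (adjusted p = 4.07e-04 and 0.0286), and the call in Mmp8-/- mice was lost without the array labelled Mmp8-/- control replicate 2 (adjusted p = 0.0792). The list of megakaryocyte and platelet markers, 5 of 6 measured, was lower without overlap in Mmp8+/+ mice alone. Its mean signal there was 9.31 to 9.48 in control mice and 7.76 to 8.60 in arthritic ones. In Mmp8-/- mice the ranges overlapped, at 8.51 to 9.29 and 8.28 to 8.56. Of the 5 markers, 3 were lower in Mmp8+/+ mice and 1 in Mmp8-/- mice. The part of this list in the result was not tested.

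Of 12 other immunoglobulin family and junction genes, 1 was higher and 1 lower in either genotype. Thy1, a ligand of Mac-1 on stromal and endothelial cells, rose by 1.10 ± 0.16 and 0.58 ± 0.16 (adjusted p = 4.00e-04 and 0.0226). Its call in Mmp8-/- mice was lost without the 2 arrays with Xist signal (adjusted p = 0.102) and without Mmp8-/- arthritic replicate 1 (adjusted p = 0.0658). Jam2, a junction molecule that binds VLA-4, changed by -1.08 ± 0.20 and -1.23 ± 0.20 (adjusted p = 0.00192 and 7.75e-04). The second call was lost without the 3 control arrays, where 1 Mmp8-/- control array remained. Of 13 genes that switch leukocyte integrins on, 0 were higher and 1 was lower in either genotype. This was Rasgrp2, the exchange factor of Rap1 in platelets and leukocytes, at -1.82 ± 0.21 and -1.20 ± 0.21 (adjusted p = 4.94e-05 and 0.00137).

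Of 8 inducers and endothelial products, Il1b was the gene that was higher in both genotypes. Il1b, a cytokine that induces E-selectin, Icam1 and Vcam1 in endothelium, rose by 1.89 ± 0.18 in Mmp8+/+ and 2.33 ± 0.18 in Mmp8-/- mice (adjusted p = 8.54e-06 and 1.85e-06). Its signal was 7.98 to 8.69 on the control arrays and 10.24 to 10.70 on the arthritic arrays. Ackr1, the chemokine carrier of venules, changed by -0.72 ± 0.20 and -1.16 ± 0.20 (adjusted p = 0.0209 and 0.00122). Its call in Mmp8-/- mice was lost without the 3 control arrays, where 1 Mmp8-/- control array remained. Ackr1 lay near the filter, with a mean signal of 5.74 over the 12 arrays where the lowest tested feature had 5.29. Glycam1, a carrier of selectin ligands, lay below the filter, at 4.58 to 4.86 on control arrays and 5.41 to 6.10 on arthritic arrays. Il1a, a cytokine of the same family as Il1b, also lay below it and went the other way, with a difference of -1.10 in Mmp8+/+ and -0.75 in Mmp8-/- mice (adjusted p = 2.75e-04 and 0.00379 by limma with no filter).

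**Figure D3:**
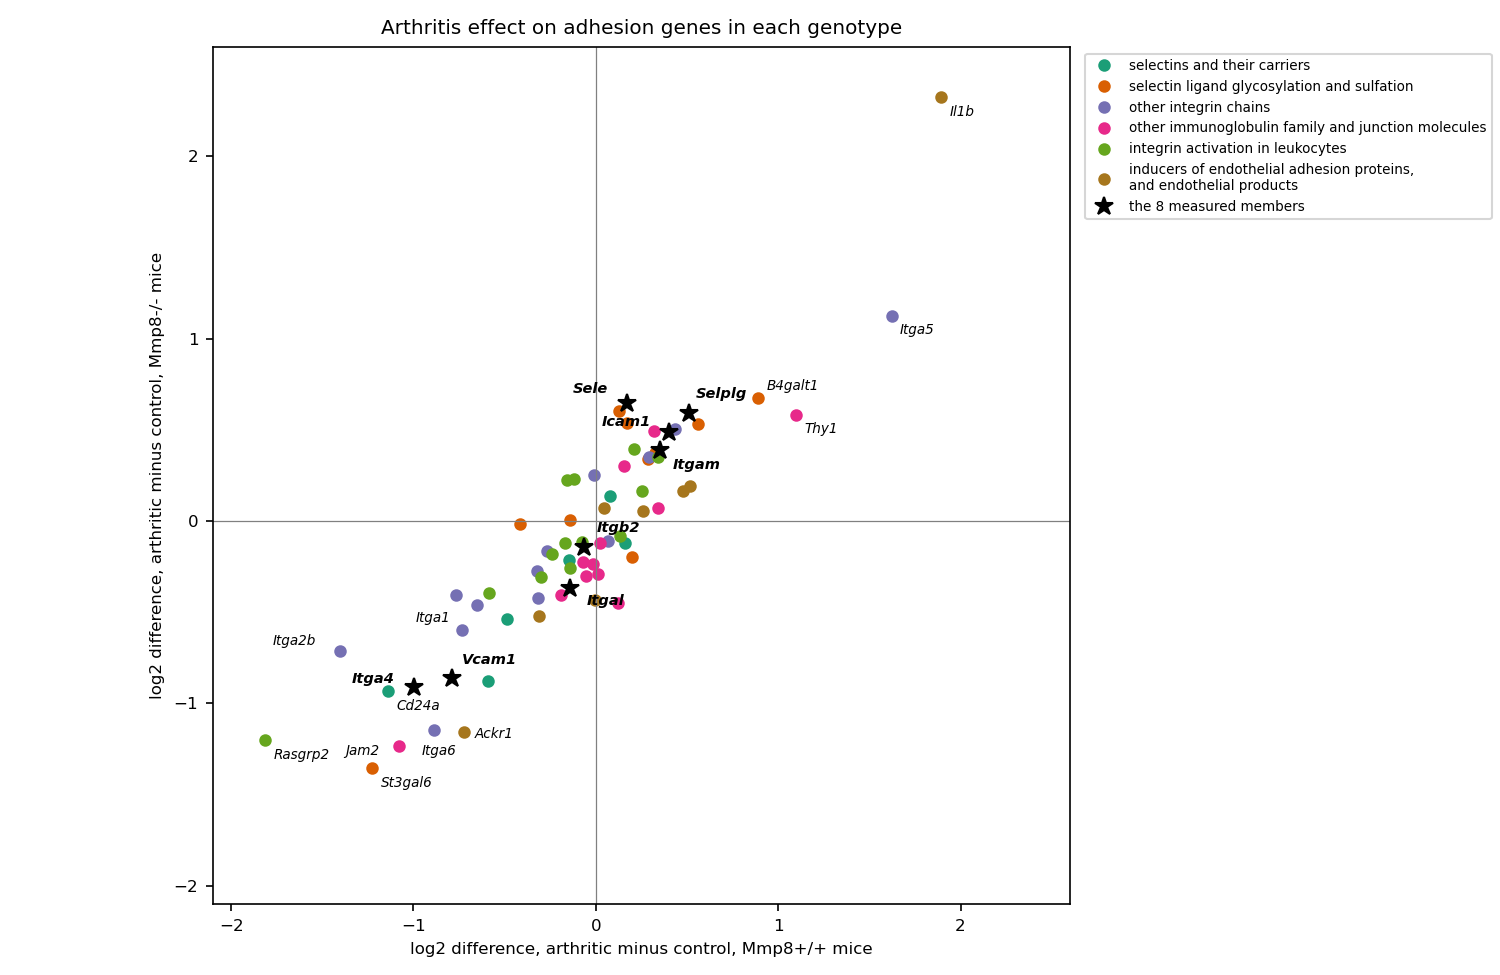
Arthritis effect in Mmp8+/+ mice (horizontal axis) against that in Mmp8-/- mice (vertical axis), both as log2 differences of arthritic minus control; dots are the 62 other adhesion genes coloured by list, stars the 8 measured members, and the genes named beside dots passed in both genotypes. Il1b and Itga5 lie farthest up and to the right, and Rasgrp2 and St3gal6 are among the lowest.

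Markers of the cells that carry these genes moved unequally. The 8 blood endothelial markers, led by Emcn, had a mean log2 signal of 8.88 to 9.18 in Mmp8+/+ control mice, 9.08 to 9.37 in Mmp8-/- control mice, 8.85 to 9.12 in arthritic Mmp8+/+ and 8.75 to 9.05 in arthritic Mmp8-/- mice. This mean overlapped between control and arthritic Mmp8+/+ mice. In Mmp8-/- mice it was lower in the arthritic group without overlap, by a narrow gap from 9.05 to 9.08. Sele was highest in that group. Pearson's r of Sele with this list was -0.15 over the 12 arrays and 0.61 with group means removed. The part of endothelium in the signal of Sele was not tested. Single markers moved in both directions. On the average over genotypes 1 of the 8 was higher and 3 were lower, where 19.5% of features were higher and 22.6% lower. The 8 markers of mature neutrophils read 9.83 to 10.13 and 9.03 to 10.02 in controls and 10.52 to 10.61 and 10.08 to 10.45 in arthritic mice, Mmp8+/+ first. Of these, 3 were higher in either genotype and 0 lower. They were Csf3r, Cxcr2 and Il1r2, named after their values were seen, while S100a8 and S100a9, the brightest of the list, did not pass. Csf3r lost its call in Mmp8-/- mice without the 3 control arrays that went against their labels, where 1 Mmp8-/- control array remained. Itgam followed this list across the 12 arrays, with Pearson's r of 0.91, and of 0.67 once group means were removed. With group means removed r was 0.86 for granulocyte precursors and 0.68 for megakaryocyte markers, so the 0.67 was not the highest among the lists. The mean of the 8 monocyte and macrophage markers overlapped among the groups, at 9.78 to 10.37 over all arrays. Its members moved in both directions. On the average over genotypes 3 of them were higher and 2 lower, against 19.5% and 22.6% of features.

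The B lineage list, with 6 of 7 markers measured, was lower in arthritic mice, as Itga4 was. Its mean was 8.50 to 8.87 and 8.68 to 8.77 in Mmp8+/+ and Mmp8-/- control mice and 6.84 to 7.16 and 7.03 to 7.80 in arthritic mice, and 5 of 6 were lower in either genotype, while Vpreb1 did not pass, at -0.01 ± 0.20 and 0.39 ± 0.20. Without the 2 arrays with Xist signal 5 of the 6 were lower in Mmp8-/- mice, where 6.85% of features were. Fewer were lower without the 3 control arrays that went against their labels, where 1 Mmp8-/- control array remained. The mean of the 6 T cell markers was lower without overlap too. It was 6.69 to 7.13 and 6.74 to 6.94 in controls and 6.20 to 6.35 and 6.19 to 6.28 in arthritic mice. Of the 6 markers, 2 passed in either genotype, both lower. The dimmest, Cd3d, lay near the filter, with a mean signal of 5.63 where the lowest tested feature had 5.29. Across the 12 arrays r with Itga4 was 0.95 for the B lineage list, 0.89 for T cells, 0.88 for bone, 0.86 for fat and 0.81 for megakaryocytes and platelets. With group means removed it was 0.60, 0.47, 0.21, -0.14 and 0.50 in the same order. It was then also 0.58 for erythroid cells and 0.53 for skeletal muscle, so the B lineage list did not stand apart. Granulocyte precursor markers, 11 in number, read 9.92 to 10.09 and 8.85 to 9.99 in controls and 8.49 to 9.57 and 8.77 to 9.41 in arthritic mice. For 4 erythroid markers of 6 listed the ranges were 8.52 to 9.10 and 6.68 to 8.92, then 5.65 to 7.44 and 6.48 to 7.18. Mmp8-/- control replicate 1, which had Xist signal, was the lowest control array for the neutrophil, precursor and erythroid lists, and also for Selplg, Itgam, Itgb2 and Itgal. Tissue markers moved as well. The mean of 4 fat cell markers was 8.66 to 9.64 and 9.35 to 9.48 in controls and 6.87 to 7.44 and 6.98 to 7.53 in arthritic mice. For 4 bone markers of 5 listed it was 9.73 to 10.23 and 10.08 to 10.56, then 8.09 to 8.51 and 8.06 to 9.46. For 5 muscle markers it was 11.27 to 12.18 and 11.17 to 11.50, then 9.35 to 11.29 and 9.67 to 10.60. Across the 12 arrays r with Vcam1 was 0.82 for bone, 0.79 for the B lineage list, 0.77 for T cells and 0.73 for fat. With group means removed r was 0.66, 0.70, 0.38 and 0.21 in the same order. It was then also 0.64 for synovial fibroblasts and 0.59 for monocytes and macrophages. These values include Mmp8-/- arthritic replicate 1, which read 9.50 for Vcam1, far below the rest of its group. Values without that array are not given. The ranges of fat and bone did not overlap between control and arthritic mice. The part of these cells and tissues in the results was not tested.

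**Figure D4:**
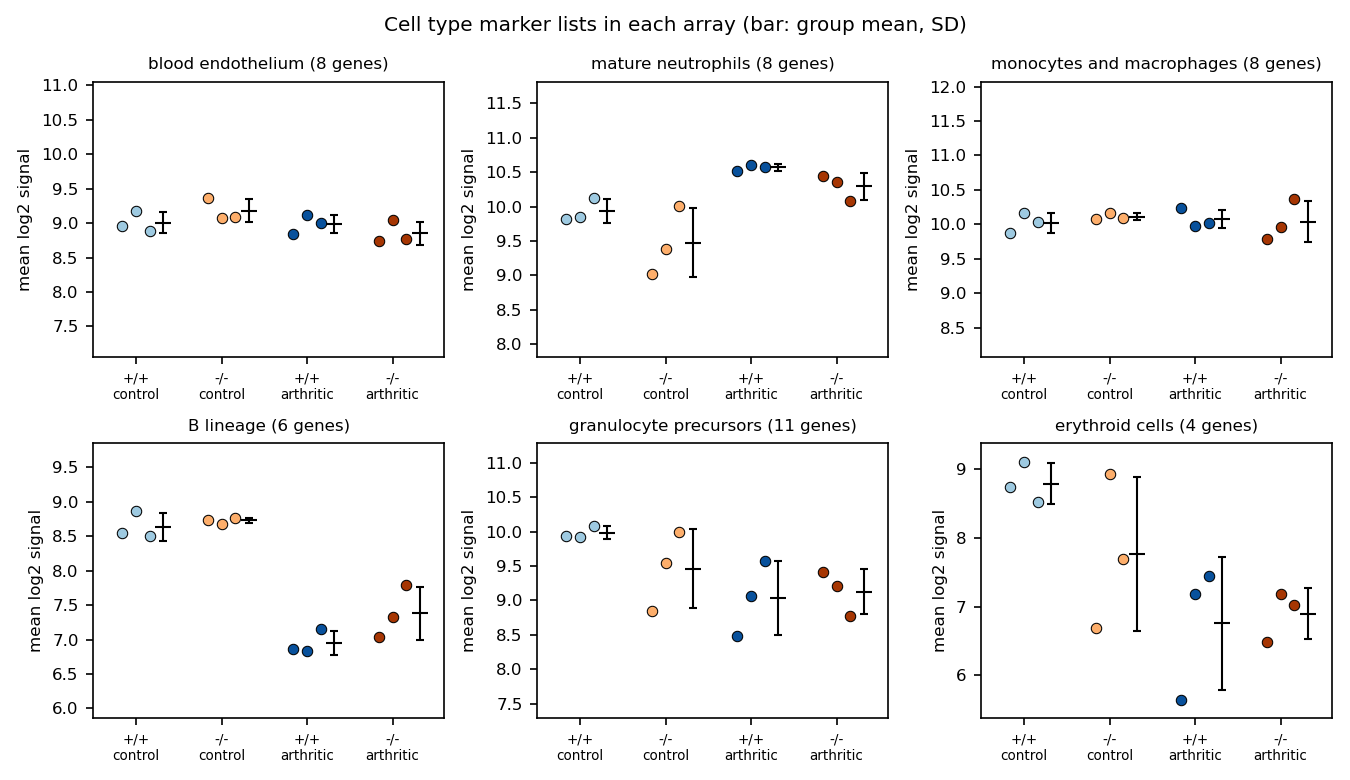
Mean log2 signal of 6 lists of cell type markers (vertical axis) on each array by group (horizontal axis); points are arrays, bars the group mean with its SD (n = 3), and every panel spans the same range. The B lineage list is lower in all arthritic arrays, the endothelial list overlaps between control and arthritic mice of the Mmp8+/+ genotype alone, and Mmp8-/- control replicate 1 lies low in the neutrophil, precursor and erythroid panels.

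The genes whose signal ran most like each member over the 12 arrays, among 15992 genes, differed from member to member. Vcam1 was nearest to Erap1 (r = 0.99), Zmym2 (0.98) and Mzt1 (0.97). Without Mmp8-/- arthritic replicate 1, which was also the lowest array for all 3, r was 0.97, 0.96 and 0.96 over 11 arrays. Itga4 was nearest to Gabpb2, Cyfip2 and Zc3h13 (0.97 each), and Selplg to Emilin2 (0.94), Fcer1g (0.93), the gamma chain of Fc receptors, and Slc25a39 (0.92). Itgam was nearest to Ankrd24, Zp1 and Pdk1 (0.94 each). Sele was nearest to Olfr1497 (0.87), Esr2 (0.85) and Fblim1 (0.85), and Icam1 to Olfr693 (0.94), Gm11545 (0.92) and Ang6 (0.92). Of these neighbours, Olfr1497, Esr2, Zp1, Olfr693 and Ang6 lay near the filter, with mean signals of 5.76, 5.62, 5.56, 5.52 and 6.00 where the lowest tested feature had 5.29. Itgb2 was nearest to Slc2a9, Cog6 (0.84 each) and Rcor1 (0.83), and Itgal to Katna1 (0.85), Zfp64 (0.83) and Patj (0.83). These correlations describe arrays that fall into control and arthritic sets and share their normalization.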

How the data were processed

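Biotin-labelled cDNA from ankle RNA was hybridised to 12 arrays. Per the labels the authors normalized with RMA, named together with Partek, and deposited log2 values per feature. The table held 28853 features, and 0 value columns were left out. Platform annotation gave 1 symbol to 21789 features, several to 1621 and none to 5443. Tests ran over the 79.00% of features with a symbol that had the highest mean signal, which is as many as the study kept (lowest mean 5.29). The linear model (limma 3.58.1, R 4.3.3) held a mean for each of the 4 groups and no covariate, with 8 residual degrees of freedom, moderated variances and Benjamini-Hochberg adjustment at 5% in each of 6 comparisons. All tests were two-sided. The members and lists were chosen with earlier results of these data known. Besides the members, genes were named as those with the largest averaged effect per list among those called in both genotypes (up to 3), the 3 most correlated genes per member, and the brightest markers, with exceptions stated. The fit was tested on simulated data. Promoter windows came from RefSeq (GRCm38.p6). Alternatives were 12 other settings and fits leaving out single arrays. The number of arrays limits the precision.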

Additional observations from a re-analysis of the deposited data

How the results depend on the processing

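No paired analysis was possible because the labels carry no replicate numbers, and those used here only name arrays. Each measured gene had 1 feature with its symbol alone, so a second feature of that kind could not be tried. Itgam also had 3 features with several symbols, which the rule of selection left out and which were not tried. The cause of any change below was not tested. Genes called in Mmp8+/+ mice rose from 1 to 2 with limma on the compared groups alone, with array weights and with quantile normalization repeated, and were 1 to 2 with single arrays left out. In Mmp8-/- mice they went from 2 to 1 with the compared groups alone and with ordinary linear regression. The same count came without the array labelled Mmp8-/- control that has Mmp8 signal and at an FDR of 1%. They went to 5 with quantile normalization repeated and to 4 with array means subtracted, and single arrays gave 1 to 3. Without the array with Mmp8 signal and the 2 with Xist signal, 1 Mmp8-/- control array remained, so no count is given. Averaged over genotypes, 6 became 5 with ordinary linear regression (Sele, adjusted p = 0.0574), 3 without the 2 arrays with Xist signal and 2 at an FDR of 1%, with 5 to 6 for single arrays. On that average Sele lost its call without Mmp8+/+ control replicate 2 or 3, the array labelled Mmp8-/- control replicate 2, Mmp8-/- control replicate 3, Mmp8+/+ arthritic replicate 3 or Mmp8-/- arthritic replicate 2, with an adjusted p up to 0.0725. The other adhesion genes called in Mmp8-/- mice fell from 15 to 8 at an FDR of 1%. They were 12 to 16 with single arrays left out, against 12 to 18 in Mmp8+/+ mice.

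No arthritis effect of a member changed sign. Differences between genotypes did, none of them past the threshold. For Mmp8-/- against Mmp8+/+ control mice, array weights gave 0.013 for Selplg and 0.011 for Itgb2, removal of the Mmp8-/- control array with Mmp8 signal gave -0.0095 for Icam1, removal of the 2 arrays with Xist signal gave 0.17 for Itgb2, and removal of all 3 gave 0.0485 for Itgam and 0.17 for Itgb2. For arthritic mice, array weights gave 0.13 for Vcam1. For the interaction, array weights gave 0.19 for Vcam1, removal of the 2 arrays with Xist signal gave -0.072 for Icam1 and -0.076 for Itgam, removal of all 3 gave -0.12 and -0.18, and removal of the array with Mmp8 signal gave 0.0092 for Itgb2. With single arrays left out, the ranges that crossed 0 were, in control mice, -0.043 to 0.24 for Sele, -0.23 to 0.18 for Selplg, -0.10 to 0.17 for Icam1, -0.20 to 0.062 for Vcam1 and -0.094 to 0.18 for Itgb2. In arthritic mice they were -0.098 to 0.12 for Selplg, -0.42 to 0.39 for Vcam1 and -0.16 to 0.11 for Itgal. For the interaction they were -0.18 to 0.23 for Selplg, -0.047 to 0.23 for Icam1, -0.35 to 0.46 for Vcam1, -0.043 to 0.13 for Itgam, -0.26 to 0.012 for Itgb2 and -0.10 to 0.32 for Itga4.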
